A study of Mus musculus with 12 samples.

Results

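The C-type clustered protocadherins are 5 cell surface genes, Pcdhac1, Pcdhac2, Pcdhgc3, Pcdhgc4 and Pcdhgc5, that lie at the ends of the alpha and gamma protocadherin arrays. They were taken by symbol from the deposited expression table, and all 5 were found among its 32494 genes. RNA was sequenced from the hypothalamus of 12 mice, all male. All 12 mice carried floxed Smc3 and were given tamoxifen, and tissue was taken 5 weeks later, with an age of 8 weeks given for the mice at a step that is not named. The 7 mice labelled WT lacked the Camk2a-cre/ERT2 transgene (Cre-), and the 5 labelled cKO carried it (Cre+). The titles of all 12 samples, of both groups, also bear the word control, whose meaning is not given. The Camk2a promoter drives the tamoxifen-activated recombinase mainly in excitatory neurons of the forebrain, while the hypothalamus also holds glia and many inhibitory neurons, in which that promoter is little used. There was no group without tamoxifen and none without the floxed alleles. Mice are named by their labelled group and number.

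Clustered protocadherins are cadherin-like adhesion proteins that pair with the same isoform on a neighbouring cell and give neurons a surface identity. Each alpha or gamma isoform is made from its own promoter and variable first exon, which is spliced to constant exons shared by the whole array. In most neurons the alternate isoforms are chosen at random by contacts between their promoters and distant enhancers, made by CTCF and cohesin, whereas the C-type promoters are used more constitutively. The promoters of Pcdhac1 and Pcdhgc3 carry the conserved sequence element of the alternate isoforms, and those of Pcdhac2, Pcdhgc4 and Pcdhgc5 are known to lack it. Pcdhac2 is known for the spacing of serotonergic axons, Pcdhgc4 for the survival of developing interneurons, Pcdhgc3 for binding Axin1 and for dendrite growth, and Pcdhgc5 for its presence at synapses. Pcdhac1 and Pcdhgc4 are known to need another isoform in the same cell to reach the surface.

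In GENCODE M21 (GRCm38) all 5 genes are on the plus strand of chromosome 18 and share their last exons with their array. Pcdhac1 spans 37090013 to 37187657 and Pcdhac2 spans 37143503 to 37187657. Pcdhgc3 spans 37806364 to 37841873, Pcdhgc4 spans 37815079 to 37841873 and Pcdhgc5 spans 37819513 to 37841873. The build and annotation that the authors counted on are not given in the sources used here. Exons held by 5 or more genes of the array make up 52.8% of the exon bases of Pcdhac1, 48.6% of Pcdhac2, 38.5% of Pcdhgc3, 37.9% of Pcdhgc4 and 27.8% of Pcdhgc5. Pcdha6, which shares the same alpha exons in M21, had at most 2 reads in any library, so on that annotation reads of the shared exons were not given to every isoform. How they were assigned is not given in the sources used here, and the level of a single isoform is uncertain to that extent. In M21 the antisense gene BC037039 covers 1559 exon bases of Pcdhgc3, and without a stated strand setting its reads cannot be told apart from those of Pcdhgc3. Gm38182, on the same strand as the gamma genes, shares 1530 exon bases with Pcdhgc5 and 628 each with Pcdhgc3 and Pcdhgc4 in M21, so reads there are uncertain under any strand setting.

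The recovered reads came to 17.1 to 24.0 M for 11 libraries but 68.7 M for WT 1, and 3 reads correspond to 0.0436 to 0.178 CPM (counts per M reads, as normalized by the authors). Smc3, the floxed gene, went against the labels: it was at 76.8 to 85.7 CPM in the libraries labelled WT and at 116 to 144 CPM in those labelled cKO, with an adjusted p-value of 3.06e-05 in limma. Every direction below therefore refers to the labels and not to a shown loss of Smc3. None of 11 hypothalamic markers was at 0 in all libraries, and their summed level ran from 80.8 to 709 CPM in the libraries labelled WT and from 182 to 774 CPM in those labelled cKO. The 10 thalamic markers, several of which hypothalamic neurons also express, summed to 1420 to 2040 CPM in the libraries labelled WT and to 1220 to 1500 CPM in those labelled cKO. All 10 had a fitted value below 0, and 3 passed the limma test described below (Rora, Prkcd and Cbln1, all lower), where 7.6% of all tested genes were lower. The defining markers of serotonin neurons, Tph2, Slc6a4 and Fev, averaged under 1 CPM. In bulk tissue, fewer cells of a type and less RNA per cell cannot be told apart.

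The levels of the 5 isoforms were compared first, to ask which of them differed between the groups. Pcdhgc5 was higher in the libraries labelled cKO, and the other 4 did not pass the test. Pcdhac2 and Pcdhgc4 had fitted values above 0, and Pcdhac1 and Pcdhgc3 had fitted values just below 0. The test was limma on log2(CPM + 1), with an adjusted p-value under 0.05 over the 15359 genes that averaged 1 CPM or more. It called 14.1% of all tested genes, 6.54% higher and 7.6% lower, so 1 of 5 members stands against a background of about that order. The count tests on recovered reads also placed only Pcdhgc5 of the 5 under 0.05, at an adjusted p-value of 0.0266 in edgeR and 0.0077 in DESeq2. Of all tested genes edgeR called 13.7% (5.81% higher, 7.85% lower) and DESeq2 17.9% (7.96% higher, 9.93% lower).

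Pcdhgc5, the last isoform of the gamma array, had a lowest, median and highest level of 13.7, 14.6 and 18.5 CPM in the 7 libraries labelled WT. In the libraries labelled cKO it was at 22.6 CPM in cKO 8, 20.3 in cKO 9, 18.7 in cKO 12, 17.2 in cKO 13 and 18.9 in cKO 14. The 5 values were all above the median of the WT libraries, and 4 were above their highest. The mean was 15.4 CPM with an SD of 1.81 over 7 WT libraries and 19.5 CPM with an SD of 2.03 over 5 cKO libraries, which is 1.26 times as high. On 279 to 1106 reads per library, limma gave a log2 difference of 0.32 (SE 0.08) and an adjusted p-value of 0.0235. With the mean log level of the thalamic markers as a covariate the log2 fold change was 0.36 and the limma adjusted p-value 0.0802, which no longer passed. It was also just past 0.05 without cKO 8 (0.0531) or without cKO 9 (0.0529), the libraries with the highest Pcdhgc5.

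Pcdhac2, the last isoform of the alpha array, ran from 22.3 to 27.2 CPM with a median of 24.7 in the libraries labelled WT. It was at 28.1 CPM in cKO 8, 30.0 in cKO 9, 28.7 in cKO 12, 21.7 in cKO 13 and 35.5 in cKO 14. Of the 5 libraries labelled cKO, 4 lay above every library labelled WT, while cKO 13 lay below all of them. In limma the log2 difference was 0.20 (SE 0.09) with an adjusted p-value of 0.162, and without cKO 13 it was 0.29 with an adjusted p-value of 0.0243. Without cKO 14, the library with the highest Pcdhac2, it was 0.12 (limma adjusted p-value 0.368).

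Pcdhgc4 showed the same arrangement of libraries. It ran from 32.2 to 41.5 CPM with a median of 37.1 in the libraries labelled WT, and was at 46.6, 42.6, 43.6, 29.3 and 45.5 CPM in cKO 8, 9, 12, 13 and 14. Here too 4 of the 5 libraries labelled cKO lay above every library labelled WT, and cKO 13 lay below them. In limma the log2 difference was 0.16 (SE 0.10) with an adjusted p-value of 0.309, and without cKO 13 it was 0.27 with an adjusted p-value of 0.0186. It was smaller with marker scores as covariates, at 0.10 (limma adjusted p-value 0.698) with the thalamic score and 0.04 (0.853) with the hypothalamic and thalamic scores.

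Pcdhgc3, the most abundant of the 5, ran from 56.1 to 69.7 CPM with a median of 66.6 in the libraries labelled WT. In the libraries labelled cKO it was at 55.8, 62.7, 68.7, 46.8 and 72.7 CPM in cKO 8, 9, 12, 13 and 14, so that the groups overlapped on both sides. Its log2 difference in limma was -0.09 (SE 0.09) with an adjusted p-value of 0.544. Pcdhac1 was the least abundant, with 26 to 152 reads per library. It ran from 1.60 to 2.23 CPM with a median of 2.17 in the libraries labelled WT, and was at 1.72, 1.96, 1.87, 1.23 and 2.72 CPM in cKO 8, 9, 12, 13 and 14. Its log2 difference in limma was -0.09 (SE 0.11) with an adjusted p-value of 0.628. Without cKO 13 the fitted values of Pcdhac1 and Pcdhgc3 were both 0.00.

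**Figure D1:**
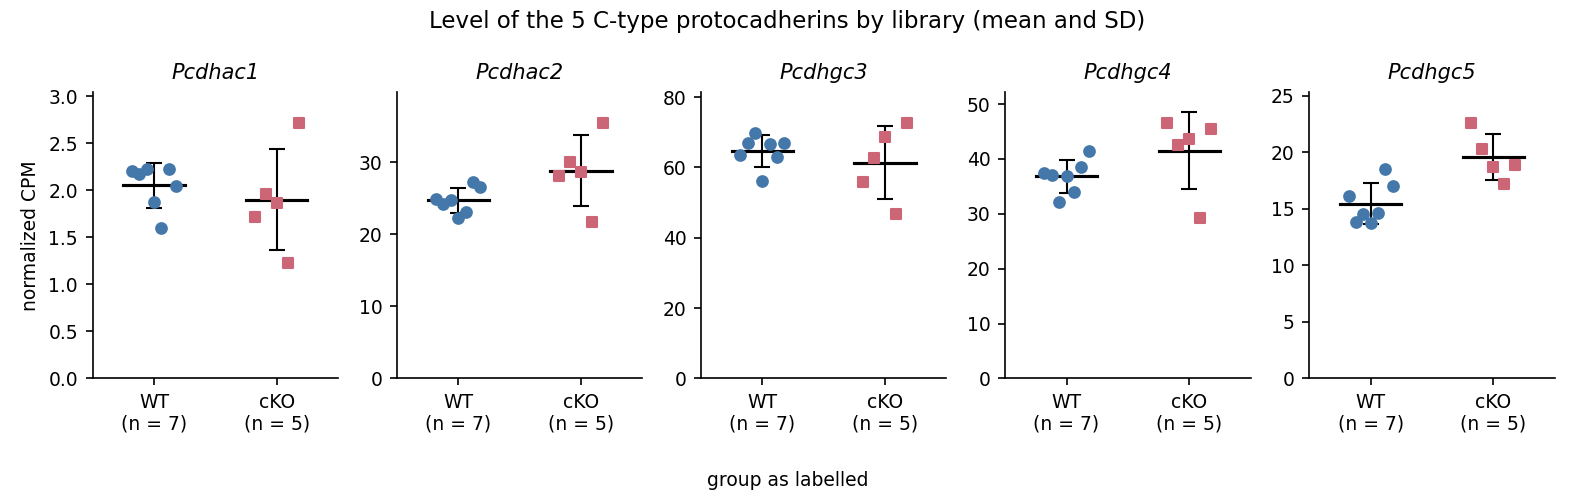
Level of each C-type protocadherin in normalized CPM (vertical axis, from 0) in the 7 libraries labelled WT (circles) and the 5 labelled cKO (squares), with the mean and SD as bars. The libraries labelled cKO lie mostly above those labelled WT for Pcdhac2, Pcdhgc4 and Pcdhgc5 (4 of 5 above every WT value), and cKO 13 is the lowest of the cKO libraries for all 5 genes.

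In none of the 5 genes were the 2 groups of CPM values fully apart, where 6.73% of all tested genes were (3.52% with the cKO libraries above, 3.2% with them below). The library cKO 13 was the lowest of the cKO libraries for each member. Its summed level was also the lowest of all libraries for the alpha array, at 37.1 CPM, and for the gamma array, at 186 CPM. Per kilobase of exon outside the widely shared exons of M21, the order of the levels in the libraries labelled WT was Pcdhgc3 (19.1 ± 1.30, SD over 7), Pcdhgc4 (10.6 ± 0.864), Pcdhac2 (8.16 ± 0.577), Pcdhgc5 (2.80 ± 0.329) and Pcdhac1 (0.802 ± 0.0925), in CPM per kilobase. The ranges of neighbours in this order did not overlap in those libraries, with 9.26 to 11.9 for Pcdhgc4 against 7.36 to 8.98 for Pcdhac2 as the closest. In the libraries labelled cKO the order of the means was the same, but Pcdhgc4 (8.43 to 13.4) and Pcdhac2 (7.15 to 11.7) overlapped. M21 gives Pcdhgc5 the longest such stretch, 5508 bases against 2559 to 3477 for the others, which lowers its level on this scale. Divided instead by exon bases held by no other gene, Pcdhgc3 was at 35.5 ± 2.42 CPM per kilobase in the libraries labelled WT, and Pcdhgc5 at 3.35 ± 0.394. The other 3 were as above, so the order was the same. This scale takes the overlap with BC037039 out of the length only. Any reads from the overlap stay in the level of Pcdhgc3, so the scale does not correct for them.

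Each isoform was then taken as a share of its array, which asks how the measured RNA of the array was divided among its isoforms. It does not depend on the scaling between libraries, and promoter use itself was not measured. Pcdhac2 held a larger share of the alpha array in every library labelled cKO, and Pcdhgc4 and Pcdhgc5 each held a larger share of the gamma array. The shares of Pcdhac1 and Pcdhgc3 did not pass the test. The share is the isoform's CPM over the summed CPM of the 12 alpha or 22 gamma genes used here, and a share can rise because the rest of the array fell. The alpha genes Pcdha4 and Pcdha7 of M21 were not analysed here, so alpha shares and sums refer to the other 12. It was compared by exact permutation (two-sided) of the group labels in all 792 arrangements, whose smallest p-value is 0.00126, adjusted over the shares of all 56 isoforms of the alpha, beta and gamma arrays. Of these 56 shares 26.8% passed, 3 higher (5.36%) and 12 lower (21.4%), and the 3 higher ones were Pcdhac2, Pcdhgc4 and Pcdhgc5.

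Pcdhac2 made up 41.4% to 46.5% of the alpha array in the libraries labelled WT, with a median of 43.3%. It made up 58.0% in cKO 8, 53.2% in cKO 9, 55.4% in cKO 12, 58.4% in cKO 13 and 52.5% in cKO 14. The groups did not overlap, and the lowest of the cKO libraries stood well above the highest of the WT libraries. The difference in means was 12.05 percentage points (exact permutation p-value 0.00126, adjusted 0.00786). Of the 12 alpha isoforms it had the largest share in all libraries.

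Pcdhgc4 made up 11.1% to 13.8% of the gamma array in the libraries labelled WT, with a median of 12.6%. It made up 18.1%, 15.7%, 16.1%, 15.7% and 14.8% in cKO 8, 9, 12, 13 and 14. Again no library labelled cKO lay within the range of those labelled WT, and the difference was 3.53 percentage points (exact permutation p-value 0.00126, adjusted 0.00786).

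Pcdhgc5 made up 4.73% to 6.04% of the gamma array in the libraries labelled WT, with a median of 5.24%. It made up 8.76%, 7.49%, 6.90%, 9.23% and 6.16% in cKO 8, 9, 12, 13 and 14. The groups did not overlap, although cKO 14 stood only just above the highest WT library. The difference was 2.44 percentage points (exact permutation p-value 0.00126, adjusted 0.00786), and its ratio of mean shares, 1.46, was above that of Pcdhac2 and of Pcdhgc4, both 1.28. The share was also fitted in a linear model with the thalamic marker score as a covariate, permuting the group labels in full. The difference was 2.60 points for Pcdhgc5 (permutation p-value adjusted to 0.0505), 2.91 for Pcdhgc4 (0.0471) and 11.35 for Pcdhac2 (0.0141). The score stayed with its library while the labels were permuted, so these p-values are approximate rather than exact.

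Pcdhgc3 made up 20.5% to 24.1% of the gamma array in the libraries labelled WT, with a median of 21.4%, and 21.6%, 23.2%, 25.4%, 25.1% and 23.6% in cKO 8, 9, 12, 13 and 14. The ranges overlapped, and the difference of 1.67 points did not pass (exact permutation p-value 0.0922, adjusted 0.194). Pcdhac1 made up 2.86% to 4.19% of the alpha array in the libraries labelled WT and 3.33% to 4.02% in those labelled cKO, a difference of -0.02 points (exact permutation p-value 0.946, adjusted 0.963). Group ranges of the share did not overlap for 17.9% of the 56 isoforms and for 3 of the 5 members.

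**Figure D2:**
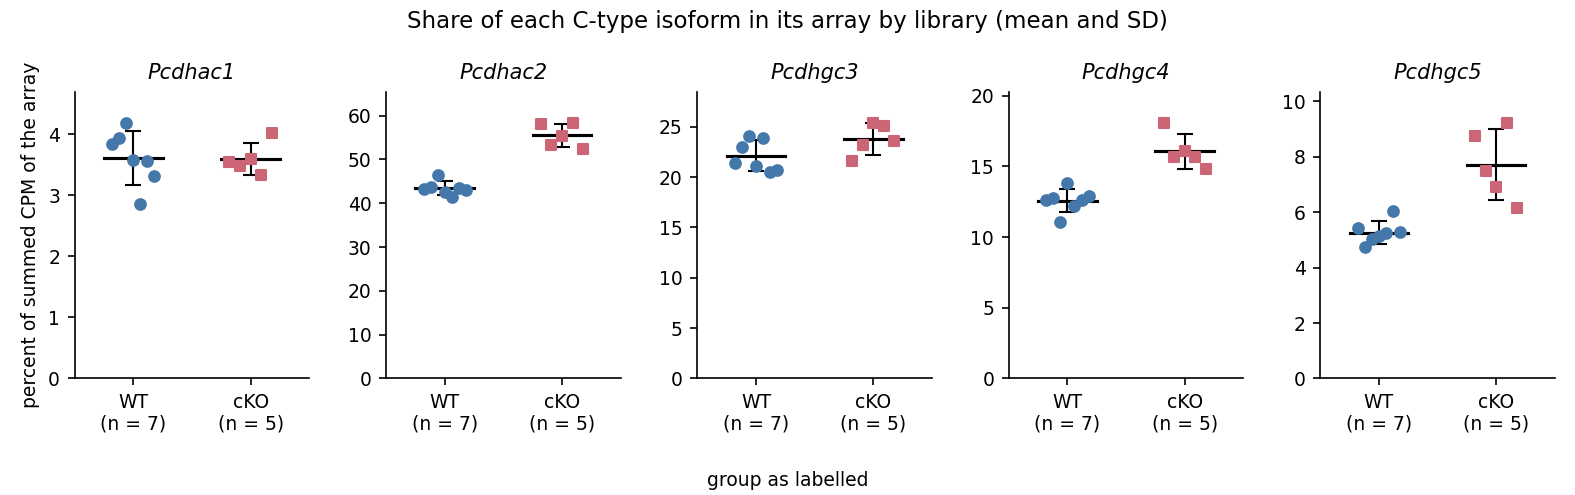
Share of each C-type isoform in the summed CPM of its array, in percent (vertical axis, from 0), in the 7 libraries labelled WT (circles) and the 5 labelled cKO (squares), with the mean and SD as bars. The groups are fully apart for Pcdhac2, Pcdhgc4 and Pcdhgc5 and overlap for Pcdhac1 and Pcdhgc3.

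cKO 13 was no exception in the shares. It had the lowest levels of the 5 members among the cKO libraries, yet the highest share of Pcdhac2 and of Pcdhgc5. Together the C-type isoforms held 44.3% to 50.7% of the alpha array in the libraries labelled WT and 56.5% to 61.7% in those labelled cKO. In the gamma array they held 38.9% to 41.4% and 44.6% to 50.1%.

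The parts of these shares moved as follows. The summed level of the 2 alpha C-type genes averaged 26.8 ± 1.90 CPM (SD) over the 7 WT libraries and 30.7 ± 5.48 CPM over the 5 cKO libraries, while that of the 10 alternate alpha genes was 30.2 ± 2.57 and 21.6 ± 5.77 CPM. The summed level of the 3 gamma C-type genes was 117 ± 5.62 and 122 ± 17.0 CPM, and that of the 19 alternate gamma genes was 176 ± 13 and 136 ± 28.0 CPM. For the alternate genes of both arrays, 4 of the 5 libraries labelled cKO lay below every library labelled WT. In the group means the lower alternate sums were thus the larger part of the change in share. In cKO 14 the higher C-type sums were the larger part, with 38.2 CPM of C-type and 29.4 CPM of alternate isoforms in alpha. In gamma they were at 137 and 170 CPM in that library. Both alpha parts were low in cKO 13, at 22.9 and 14.2 CPM, so the size of each part depended on the library. The array totals did not pass exact permutation (two-sided) on the log2 scale, with a difference of -0.15 for alpha (p-value 0.289, adjusted over 3 arrays 0.289), -0.20 for gamma (0.0568, adjusted 0.170) and -0.10 for beta (0.159, adjusted 0.239). Without cKO 14, the cKO library with the highest totals, each passed, at -0.25 for alpha (adjusted 0.0318), -0.26 for gamma (adjusted 0.0273) and -0.15 for beta (adjusted 0.0424). Without cKO 13, the library with the lowest alpha and gamma totals, the differences shrank to -0.03 for alpha (exact permutation p-value adjusted to 0.727) and -0.08 for gamma (0.464).

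**Figure D3:**
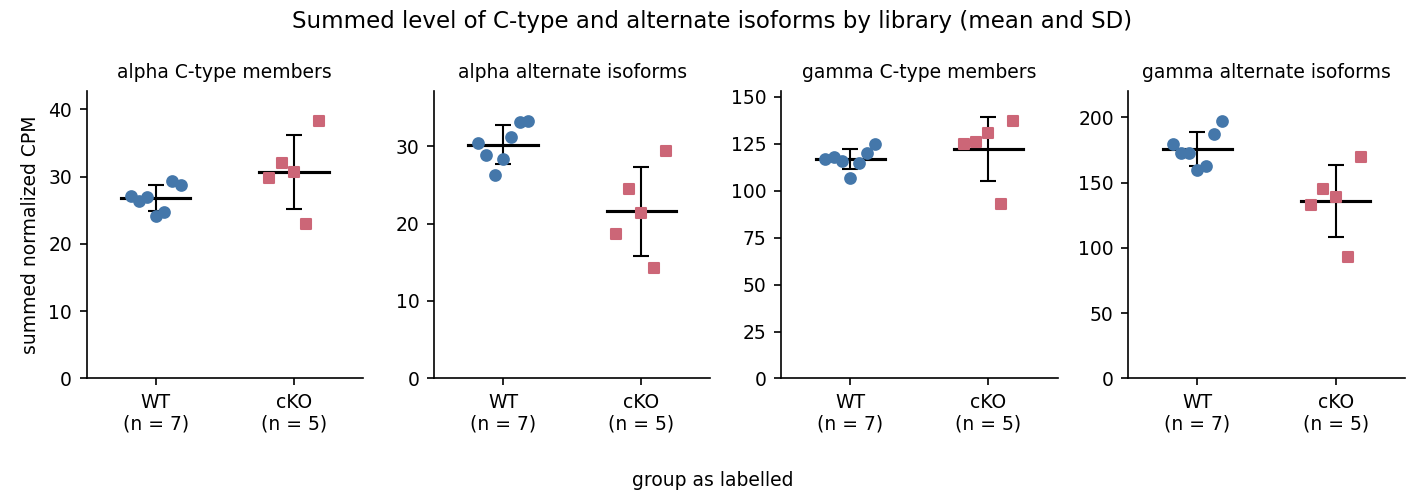
Summed normalized CPM (vertical axis, from 0) of the C-type and of the alternate isoforms of the alpha and gamma arrays in the 7 libraries labelled WT (circles) and the 5 labelled cKO (squares), with the mean and SD as bars. For the alternate isoforms 4 of the 5 cKO values lie below every WT value, and for the C-type isoforms the ranges overlap.

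Whether members of 1 array differed from each other was asked with the log2 ratio of their CPM + 1 in each library, over all 297 pairs of isoforms within the alpha or gamma array. Of the 297 ratios 32.0% passed the exact permutation test after adjustment. Pcdhac1 fell relative to Pcdhac2: the log2 ratio was -3.21 to -2.99 in the libraries labelled WT and -3.42 to -3.29 in those labelled cKO, with no overlap, where 19.2% of pairs had none. The difference was -0.29 (exact permutation p-value 0.00253, adjusted 0.0114). Pcdhgc3 fell relative to Pcdhgc5, with a difference of -0.41 (exact permutation p-value 0.0114, adjusted 0.0371) and overlapping ranges. This call was lost in 9 of the 12 tests that each left out 1 mouse, with an adjusted p-value of at most 0.0891 and differences of -0.49 to -0.33. Pcdhgc3 relative to Pcdhgc4 differed by -0.25 (exact permutation p-value 0.0290, adjusted 0.0837), which did not pass, though it did without WT 6 (adjusted 0.0261). Pcdhgc4 and Pcdhgc5, whose shares both rose, differed by -0.17 (exact permutation p-value 0.105, adjusted 0.227), with ratios of 1.02 to 1.37 and 0.736 to 1.22, so a difference between them was not shown.

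Against the alternate isoforms, every called ratio placed the member higher in the libraries labelled cKO. Pcdhgc4 and Pcdhgc5 each rose relative to 19 of the 19 alternate gamma isoforms, and Pcdhgc3 relative to 8 of 19. In the alpha array Pcdhac2 rose relative to 5 of the 10 alternates and Pcdhac1 relative to 4. The background is 32.0% called over all 297 pairs, which include those of the members, and 17.6% over the 216 pairs of alternate isoforms alone. All ratios of a member contain its own level, so they are not independent of each other or of its share. Nothing particular to Pcdhac1 or Pcdhgc3 is read from their counts. When the other C-type isoforms were left out of the array sum, Pcdhgc3 gained 4.32 points against the alternates (exact permutation p-value adjusted to 0.0157), Pcdhgc4 gained 6.21 points and Pcdhgc5 4.79 points (both adjusted to 0.0118), and Pcdhac1 gained 1.67 points (adjusted to 0.0257). The shares of Pcdhac1 and Pcdhgc3 therefore depended on whether the other C-type isoforms were counted in the array.

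Along the chromosome, the C-type genes lie at the downstream end of their arrays. In limma, 4 of the 8 tested alternate alpha isoforms and 8 of the 19 alternate gamma isoforms were lower in the libraries labelled cKO, and 0 were higher, against 7.6% lower of all tested genes. The median log2 fold change was -0.38 over the 8 alpha and -0.34 over the 19 gamma alternates, 0.16 over the 5 C-type isoforms and 0.01 over all tested genes. The 4 lower alpha isoforms, Pcdha9, Pcdha10, Pcdha11 and Pcdha12, are the alternates nearest the C-type genes, an arrangement seen only after the values were known. Pcdha6 and Pcdha8 were under the CPM minimum. Immediately upstream of the C-type genes, Pcdha12 averaged 5.02 ± 0.726 CPM (SD) over the WT libraries and 2.33 ± 1.15 CPM over the cKO libraries, at -0.91 on the log2 scale (limma adjusted p-value 0.00767). Pcdhga12, which directly precedes Pcdhgc3, averaged 14.7 ± 1.02 and 10.1 ± 2.65 CPM, at -0.53 on the log2 scale (limma adjusted p-value 0.0179), and Pcdhgb8 had -0.39 (limma adjusted p-value 0.0195). Lower alternates were not confined to the C-type end of the gamma array: Pcdhga2 (-0.49, limma adjusted p-value 0.0130) and Pcdhga3 (-0.55, 0.0196) lie near its upstream end. Of the most abundant alternates, Pcdha9 had a log2 fold change of -0.75 (limma adjusted p-value 0.0151), Pcdhgb6 -0.42 (0.0420) and Pcdhga7 -0.21 (0.233), the last not past the threshold.

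**Figure D4:**
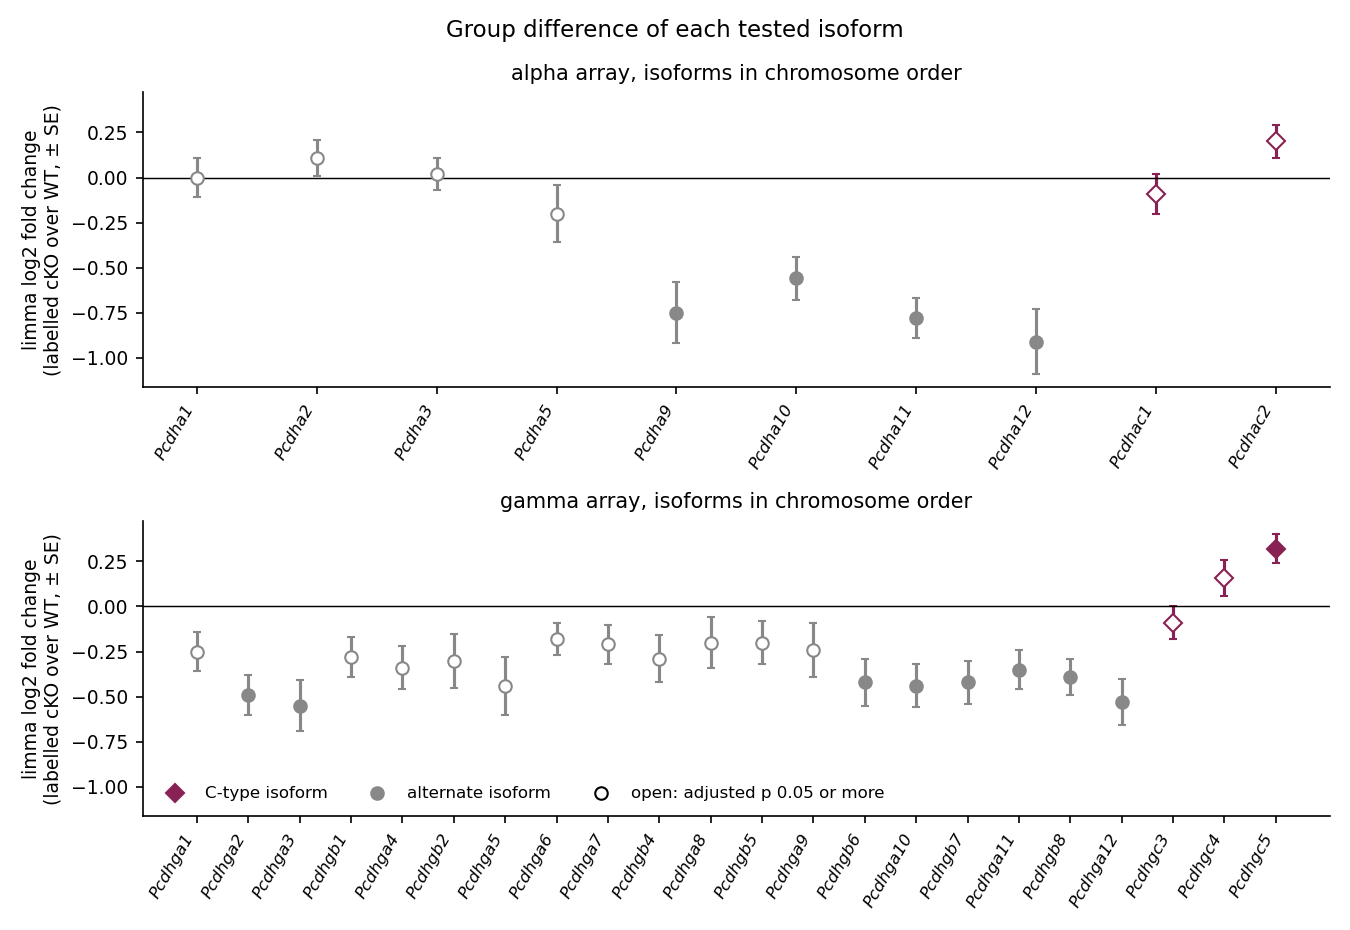
Limma log2 fold change of the libraries labelled cKO over those labelled WT, with its SE (vertical axis), for each tested isoform in chromosome order (horizontal axis), alpha array above and gamma array below. Diamonds are C-type and circles alternate isoforms, and filled symbols passed an adjusted p-value of 0.05: Pcdhgc5 at 0.32 is the only filled symbol above 0, and Pcdha12 at -0.91 is the lowest.

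The genes that act on clustered protocadherin promoters were compared through a list of 27 genes, of which 26 were tested and Dnmt3b was under the CPM minimum. In limma 4 were higher and 4 were lower in the libraries labelled cKO, beside 6.54% higher and 7.6% lower of all tested genes, and their median log2 fold change was 0.00. Higher, besides Smc3, were the cohesin subunit genes Stag1 (log2 fold change 0.33, limma adjusted p-value 0.00478), Stag2 (0.19, 0.0130) and Smc1a (0.13, 0.0178). Lower were Tet2, an enzyme that oxidizes methylated cytosine (-0.31, limma adjusted p-value 0.00601), Dnmt3a, a DNA methyltransferase (-0.22, 0.0245), Pds5b, a cohesin regulator (-0.24, 0.0439), and Mau2, part of the cohesin loader (-0.16, 0.0182). In the authors' deposited table Smc1a (false discovery rate 0.113), Pds5b (0.0634) and Mau2 (0.0557) were not under 0.05. Ctcf, which binds the promoters and enhancers of the arrays, averaged 74.6 ± 3.55 CPM (SD) and 71.4 ± 5.31 CPM, at -0.06 on the log2 scale (limma adjusted p-value 0.412).

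Of 23 genes whose proteins bind or act downstream of clustered protocadherins, 1 was higher and 1 was lower, beside 14.1% called of all tested genes. A difference from that share was not tested. The median log2 fold change of the 23 genes was 0.03. Ptk2b, a focal adhesion kinase family member that gamma protocadherins inhibit, averaged 70.2 ± 15.2 CPM (SD) over the WT libraries and 44.5 ± 11.6 CPM over the cKO libraries, at -0.66 on the log2 scale (limma adjusted p-value 0.0202). Nlgn1, a postsynaptic adhesion gene, was higher, with a log2 fold change of 0.19 (limma adjusted p-value 0.0281). In the authors' deposited table the false discovery rate of Nlgn1 was 0.0547. Axin1, the partner of Pcdhgc3, had a log2 fold change of -0.05 (limma adjusted p-value 0.397).

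Among marker lists of the cells the tissue could hold, limma called 1 of 6 neuronal genes (Stmn2, higher), 2 of 4 genes of oligodendrocyte precursors (Pdgfra and Olig2, higher) and 1 of 11 hypothalamic genes (Sim1, higher), beside 6.54% higher of all tested genes. It called none of the tested markers of astrocytes (6), oligodendrocytes (6), microglia (6), endothelial cells (6), leptomeninges (5), choroid plexus (4), ependyma and tanycytes (4), serotonin neurons (2), cortex and striatum (9) or pituitary (3). In the authors' deposited table the false discovery rate was 0.171 for Pdgfra and 0.0458 for Olig2. Precursors of oligodendrocytes summed to 295 to 386 CPM in the libraries labelled WT and 361 to 410 CPM in those labelled cKO. The summed neuronal markers ran from 3950 to 4470 and from 4230 to 4950 CPM, and those of microglia from 155 to 189 and from 170 to 191 CPM. For these 3 lists all 5 libraries labelled cKO lay above the WT median. Astrocyte markers summed to 2370 to 2800 and 2500 to 3000 CPM, with 3 of the 5 libraries labelled cKO above every library labelled WT. The choroid plexus markers summed to 26.8 to 40.7 CPM in the libraries labelled WT and 24.1 to 29.2 CPM in those labelled cKO, with all 5 of the latter below the WT median. That sum averaged 33.8 CPM in the WT and 26.5 CPM in the cKO libraries, and Clic6, a gene of the list, averaged 16.2 and 10.4 CPM. Clic6 was lower in the authors' deposited table (log2 fold change -0.64, false discovery rate 0.0411). No other choroid plexus marker had a rate under 0.05 there, with log2 fold changes from -0.31 to 0.12. The pituitary markers, which include Pomc of the hypothalamic list, summed to 5.78 to 27.4 CPM in the libraries labelled WT and 6.25 to 166 CPM in those labelled cKO, with all 5 of the latter above the WT median. Pomc alone ran from 3.02 to 22.9 CPM in the libraries labelled WT and from 3.41 to 153 CPM in those labelled cKO. For Pomc, as for the sum, 1 library labelled cKO lay above every library labelled WT. In the authors' deposited table the pituitary hormone genes Gh (log2 fold change 1.95, false discovery rate 0.0428) and Prl (2.40, 0.0259) were higher. The other pituitary markers, Pomc among them, did not have a rate under 0.05 there, with log2 fold changes from -0.03 to 2.25. The thalamic and hypothalamic lists were used as covariates, and the part of the other markers in the protocadherin values was not tested.

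The genes whose deviations from their group means most resembled those of each member were sought among the 12184 tested genes that averaged 5 CPM or more. All of these correlations are descriptions over 12 libraries that share depth and tissue sampling. For Pcdhac1 they were Mpdz (r = 0.951), Mex3d (0.922) and Zfp292 (0.922), and for Pcdhac2 they were Gsk3b (0.964), Nup153 (0.953) and Nr2c2 (0.951). For Pcdhgc3 they were Mllt1 (0.976), Irs2 (0.952) and Xylt1 (0.949), and for Pcdhgc4 they were Cracd (0.956), Bcr (0.952) and Nlgn3 (0.952). For Pcdhgc5 they included Tep1 (0.921) and Crim1 (0.908). Without cKO 13 the 3 values of Pcdhgc4 were 0.785 to 0.830, the furthest drop among these genes.

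The members resembled one another unevenly by the same measure. Pcdhac1 and Pcdhac2, neighbours in the alpha array, had r = 0.908, and 0.831 without cKO 13. Pcdhgc3 and Pcdhgc4 had r = 0.559, and -0.244 without cKO 13, so that their likeness rested on that library. Pcdhgc4 and Pcdhgc5 had r = 0.596, and 0.546 without it. Pcdhgc3 and Pcdhgc5 had r = 0.11, and -0.30 without it. Across the arrays, Pcdhac2 had r = 0.815 with Pcdhgc3 and 0.783 with Pcdhgc4, and 0.574 and 0.361 without cKO 13. Pcdhac2 and Pcdhgc5 had 0.517, and 0.356 without it. Pcdhac1 had 0.759 with Pcdhgc3, 0.634 with Pcdhgc4 and 0.261 with Pcdhgc5, and without cKO 13 these were 0.533, 0.153 and -0.008, so most of these values leaned on that library.

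In the authors' deposited table, which tests the same contrast, Pcdhgc5 had a log2 fold change of 0.34 and a false discovery rate of 0.0220. That rate was under 0.05 for 4.94% of the 32494 genes in the authors' deposited table, 1.63% higher and 3.3% lower. The other 4 members were not, with log2 fold changes in the authors' deposited table of 0.22 for Pcdhac2 (false discovery rate 0.240), 0.17 for Pcdhgc4 (0.437), -0.08 for Pcdhgc3 (0.881) and -0.13 for Pcdhac1 (0.970).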

How the data were processed

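Libraries were made from messenger RNA of 12 hypothalami with a NEBNext Ultra II kit, per the labels' protocols. bcl2fastq, FastQC 0.11.9, STAR 2.7.9a, SAMtools and Subread featureCounts are named in the submitters' processing notes, without their settings. The authors deposited normalized CPM for each gene, and their own test of each gene, with log2 fold changes, log2 mean CPM, p-values and false discovery rates. In each library 100% of the deposited CPM values were whole multiples of 1 step (within 0.01 of a read), so whole reads were recovered. Columns were assigned through the titles of the samples, and 0 columns were left unused.

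Because normalized CPM is no count, limma 3.58.1 (R 4.3.3; lmFit, then eBayes with a trend) was run on log2(CPM + 1), which understates changes of low genes. It used no covariates and no batch, since the labels give none. P-values were adjusted by the Benjamini-Hochberg method. Shares, ratios and array totals were compared by exact permutation in Python. Replicates of a group differed by more than sampling noise (chi-square per degree of freedom 3.04 to 26.3 over 31 pairs). Nothing but their numbers says how the mice are related, so p-values measure the spread between these samples. On simulated counts limma recovered 195 of 196 genes changed by 1 log2 unit (99.5%) among 15392 tested, with 9 false calls. The simulation gave every gene the same set spread, and changes larger than any fitted for the members. Its rates therefore do not carry over to the tests of the members. Alternatives were other pseudocounts, scalings, minimums and covariates, edgeR 4.0.16 and DESeq2 1.42.0 on recovered reads, other denominators and leaving out each mouse. The GC and length correction, the share per kilobase of variable exon and the covariate for shares were chosen after seeing the data. Members and gene lists were chosen with earlier results of these data known. Genes were named by a rule: the members, Smc3, the array neighbours and the 2 most abundant alternates of each array, listed genes past the threshold and the 3 genes most like each member, of which 1 is not reported here. Ctcf, Axin1, Pcdha6, Pcdha10, Pcdha11, Pcdhga2, Pcdhga3, Clic6, Gh and Prl were named after their values were seen. So were Pomc and the genes named as under the CPM minimum.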

Additional observations from a re-analysis of the deposited data

Results flagged for a closer look

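In 38 groups of values, those of the members, their shares and ratios, the array totals, Smc3 and depth, 3 libraries stood far from the rest of their group, where chance gives 1.9. Pcdhgc4 was at 29.3 CPM in cKO 13, and the next of the libraries labelled cKO was at 42.6 CPM. The log2 ratio of Pcdhgc3 to Pcdhgc4 was 0.255 in cKO 8, and the next of the libraries labelled cKO was at 0.545. WT 1 had 68.7 M reads, and the next of the libraries labelled WT had 24.0 M reads.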

How the results depend on the processing

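No paired analysis was possible because the 2 groups share none of their mouse numbers. The share differences of Pcdhac2 and Pcdhgc4 kept their direction and their side of the threshold under all alternatives that were run. With the thalamic score the adjusted permutation p-value of Pcdhgc4 was 0.0471. The hypothalamic and thalamic scores together were not run on the shares. Leaving out 1 mouse gave 11.33 to 12.80 points for Pcdhac2, 3.04 to 3.85 for Pcdhgc4, 2.06 to 2.83 for Pcdhgc5, 1.27 to 2.21 for Pcdhgc3 and -0.14 to 0.08 for Pcdhac1. The share of Pcdhgc5 did not pass with the thalamic score (2.60 points, adjusted p-value 0.0505). It was 1.34 points per kilobase of exon held by no other gene, 1.49 per kilobase of variable exon and 4.79 without the other C-type isoforms in the sum, and passed in each, as did that of Pcdhgc4 at 2.60, 3.51 and 6.21. The share of Pcdhgc3 passed without the other C-type isoforms in the sum (4.32 points). The share of Pcdhac1 turned to 0.21 points per kilobase of exon held by no other gene, to 0.02 per kilobase of variable exon, and to 1.67 without the other C-type isoforms.

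The limma log2 fold change of Pcdhgc5 was 0.36 with the thalamic score (adjusted p-value 0.0802) and 0.33 with the hypothalamic and thalamic scores (0.0725), and 0.32 to 0.41 over its 10 alternatives, edgeR and DESeq2 among them. Leaving out 1 mouse gave 0.27 to 0.36 for Pcdhgc5, 0.12 to 0.29 for Pcdhac2, 0.11 to 0.27 for Pcdhgc4, -0.15 to 0.00 for Pcdhgc3 and -0.18 to 0.00 for Pcdhac1. The log2 fold change of Pcdhgc4 was 0.10 with the thalamic score and 0.04 with both scores. Over all tested genes with known GC content and length, log2 fold changes fell with GC content (Spearman rho -0.216, and 0.00953 after the correction). The GC and length correction gave 0.41 for Pcdhgc5, 0.25 for Pcdhac2 (limma adjusted p-value 0.0589) and 0.23 for Pcdhgc4 (0.0986). It gave -0.01 for Pcdhgc3 and -0.07 for Pcdhac1. The minimum mean of 5 CPM gave no value for Pcdhac1. For the log2 ratios, leaving out 1 mouse gave -0.31 to -0.27 (Pcdhac1 to Pcdhac2), -0.28 to -0.17 (Pcdhgc3 to Pcdhgc4), -0.49 to -0.33 (Pcdhgc3 to Pcdhgc5) and -0.21 to -0.09 (Pcdhgc4 to Pcdhgc5). For the array totals, the same omissions gave -0.25 to -0.03 (alpha), -0.15 to -0.05 (beta) and -0.26 to -0.08 (gamma), the alpha and gamma values nearest 0 being those without cKO 13. The number of genes called by limma, 2172, became 641 under the thalamic score and 1376 under both scores. It ran from 1161 (without WT 1) to 2309 over the fits that left out 1 mouse. For the covariates, the cause was not tested. Median centring removed a difference of -0.0139 (cKO minus WT) in the median of all genes and turned no member's direction. Depth limits Pcdhac1 most, at as few as 26 reads.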
